A study of Mus musculus with 16 samples.

Results

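The proteins that bring fatty acids into cells or carry them inside cells are described here through the mRNA of their genes Cd36, Lpl, Vldlr, Slc27a1, Slc27a3, Slc27a4, Fabp3, Fabp4, Fabp5 and Fabp7. These 10 genes were chosen by their symbols among the 45777 genes listed in the table of counts. Melanoma cells of the B16F10 line, which stems from a C57BL/6 mouse, had been injected under the skin of the flank of C57BL/6J mice (lean) or leptin-deficient ob/ob mice (obese), which were 6 weeks old. Tumors were taken before therapy, with no etoposide given, or after 5 injections of etoposide (ETS), which blocks topoisomerase and so leaves DNA breaks, at 20 mg per kg. RNA of 16 whole tumors was sequenced, 4 in each of the groups lean before therapy, lean after ETS, obese before therapy and obese after ETS. All tumors came from the same cell line, and all obese hosts lacked leptin. The untreated tumors were taken before therapy, so the effect of the drug and of the days that passed during treatment cannot be told apart.

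Fatty acids reach a cell either free, bound to albumin in the blood, or packed as triglyceride in lipoproteins. Lipoprotein lipase, made by Lpl, cuts the triglyceride on the vessel wall, the receptor made by Vldlr takes up triglyceride-rich particles, and CD36 at the cell surface binds and helps to take up the released fatty acids. The fatty acid transport proteins made by the Slc27a genes join the incoming fatty acid to coenzyme A, which traps it in the cell, and the fatty acid binding proteins made by the Fabp genes carry it through the cytoplasm towards membranes, oxidation, storage or nuclear receptors. Cd36 and Fabp4 are known for high expression in adipocytes, macrophages and capillary endothelium, and Lpl in adipocytes and macrophages. Fabp3 is known from heart and skeletal muscle, Fabp5 from epidermis and many tumors, and Fabp7 from glia and melanocytic cells.

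Total counts ranged from 47199949 to 61655287 per tumor, and the 10 genes had between 71 counts (Lpl) and 19416 counts (Fabp5) in single tumors, so all of them passed the limit of at least 1 count in every tumor. Levels are given as CPM (counts scaled to library size, with TMM factors) for the comparison of a gene between tumors, and as TPM, which is per length, for the comparison between genes. Changes are log2 fold changes (log2FC) with their standard errors (SE), from edgeR's quasi-likelihood test over 16209 genes, and were called at a Benjamini-Hochberg adjusted p under 0.05. Changes named as those with TPM values are from limma on log2(TPM + 1), a scale on which the median lean change of all genes moved by -0.35. Whole tumors hold host cells beside melanoma cells, and fewer cells of a type and less RNA per cell cannot be told apart. The melanocyte marker genes were high in all tumors, with a summed level from 11388 to 28804 CPM. Before therapy the sums of the obese tumors (11757 to 16050 CPM) were all below those of the lean tumors (19576 to 24952 CPM). Of these 11 genes, 7 were called lower there and 0 higher, beside 12.9% of tested genes lower. Sox10 (477 CPM in lean, 577 CPM in obese tumors) and Mitf (532 and 600 CPM) had higher means in obese tumors, without a call. The share of counts in mitochondrial genes moved with ETS, from 4.19 to 6.09% before therapy to 9.85 to 14.5% after ETS in lean tumors, without overlap, and from 4.11 to 5.58% to 4.74 to 11.7% in obese tumors. The part of this share in the ETS changes was not tested. Skeletal muscle markers exceeded 100 CPM in 4 tumors, which were lean tumor 2 before therapy, lean tumors 1 and 2 after ETS and obese tumor 2 after ETS. The ob allele does not remove the Lep transcript, and Lep, at 0 to 18 counts in lean and 6 to 537 counts in obese tumors, therefore did not check the genotype.

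Per length, Fabp5 had the highest mean of the 10 genes in all 4 groups. Its mean level was 512 ± 98.0 TPM (SD, n = 4) in lean tumors before therapy, 439 ± 19.9 TPM in lean tumors after ETS, 611 ± 57.3 TPM in obese tumors before therapy and 382 ± 82.8 TPM in obese tumors after ETS. Vldlr had the lowest mean in all 4 groups, between 0.798 and 2.73 TPM. Fabp4 came after Fabp5 with 50.4 TPM in lean tumors before therapy, and with 117 TPM in obese tumors before therapy, and its range overlapped with none of its neighbours in the order there. In lean tumors after ETS, however, Fabp4 was the fourth gene with 28.1 TPM, and its range overlapped with that of Fabp7. In obese tumors after ETS it reached 307 ± 167 TPM, where the range from 175 to 537 TPM overlapped with that of Fabp5, from 317 to 501 TPM, and in obese tumor 1 Fabp4 (537 TPM) was above Fabp5 (336 TPM). Cd36 had rank 7 by mean in lean and obese tumors before therapy (16.7 and 15.8 TPM) and in lean tumors after ETS (5.93 TPM). In obese tumors after ETS its mean had rank 3 (51.0 TPM), but its range overlapped with those of Slc27a4, Fabp3, Slc27a1 and Fabp7. Obese tumor 1 after ETS had 97.8 TPM of Cd36, while tumors 2 to 4 had 30.6, 42.8 and 33.1 TPM. By median, Cd36 (37.9 TPM) was below Slc27a4 (44.5 TPM) and Fabp3 (38.5 TPM) in that group. Lpl stood at 17.6 TPM in lean tumors before therapy, overlapping with Slc27a1 and Fabp7, and at 2.01 TPM in lean tumors after ETS, overlapping with Slc27a3 and Vldlr.

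**Figure D1:**
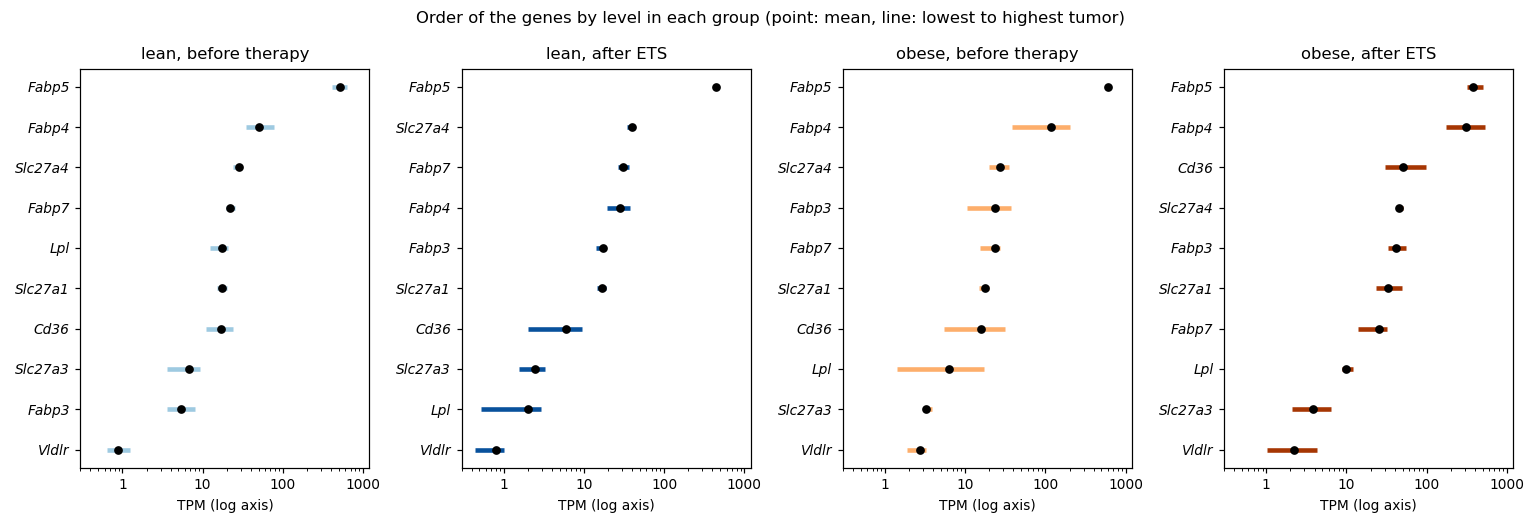
Order of the 10 genes by level in each group, in TPM on a log axis; points are means and lines run from the lowest to the highest of 4 tumors. Fabp5 leads in all 4 groups, with means from 382 to 611 TPM, Vldlr is last, and Fabp4 and Cd36 stand highest in obese tumors after ETS at 307 and 51.0 TPM.

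After ETS, 3 of the 10 genes rose in lean tumors and 2 fell, beside 21.0% of all tested genes higher and 22.8% lower. The rises were those of Fabp3, Fabp7 and Slc27a4, and the falls those of Lpl and Slc27a3. In obese tumors 5 of the 10 rose (Cd36, Fabp3, Fabp4, Slc27a1 and Slc27a4) and 1 fell (Fabp5), beside 21.2% of tested genes higher and 19.0% lower. Over the 10 genes the median log2FC amounted to 0.17 with lean and 0.85 with obese hosts, against -0.015 and 0.0066 over all tested genes. The CPM ranges of the tumors before and after ETS did not overlap for 4 genes in lean and for 4 in obese tumors, while this held for 41.2% and 34.2% of all tested genes. The lean share of calls is therefore near that of all genes. When the lean and obese effects were tested against each other, 3 genes had a lower change in lean tumors (Cd36, Lpl and Slc27a1) and 1 a higher change (Fabp5), beside 10.1% and 6.35% of tested genes.

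**Figure D2:**
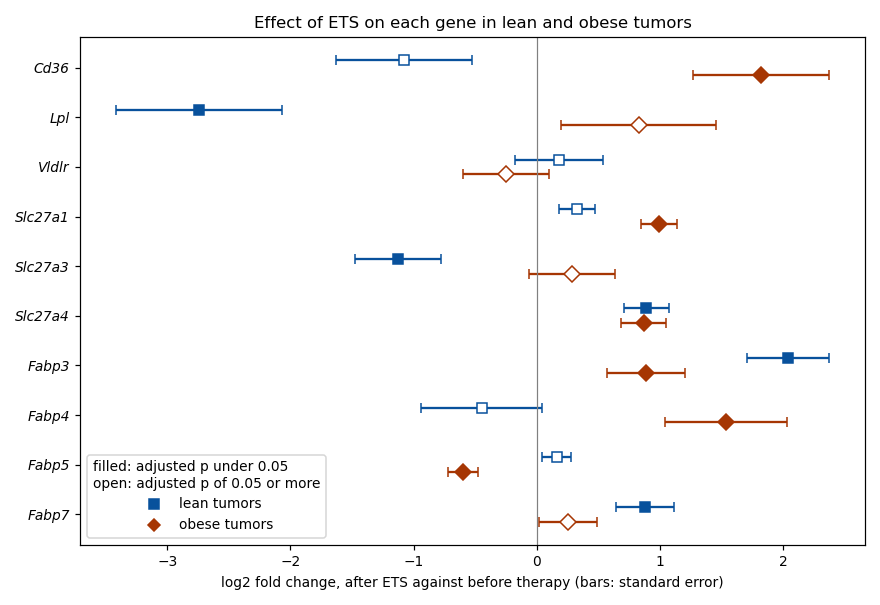
Log2 fold change of each gene after ETS against before therapy, in lean tumors (squares) and obese tumors (diamonds); bars are standard errors, and filled symbols mark an adjusted p under 0.05 in edgeR's test. Lpl and Cd36 lie furthest apart, at -2.74 against 0.83 and at -1.08 against 1.82, and Slc27a4 lies at nearly the same place in both, at 0.89 and 0.87.

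Cd36, the scavenger receptor for long-chain fatty acids (gene ID 12491, at 17781690 to 17888959 on chromosome 5, build GRCm38.p6), rose after ETS in obese tumors, while its change in lean tumors did not pass the test. It counted 8.97, 46.2, 30.3 and 13.8 CPM in obese tumors 1 to 4 before therapy and 179, 53.8, 63.5 and 54.9 CPM in obese tumors 1 to 4 after ETS. All 4 obese tumors after ETS were above all 4 before therapy, with tumor 1 far above the rest. The log2FC was 1.82 (SE 0.55, adjusted p = 0.0170), that is 3.54-fold. In lean tumors the values were 40.7, 21.1, 16.1 and 24.8 CPM before therapy and 18.9, 15.4, 10.1 and 4.18 CPM after ETS, which overlapped (log2FC -1.08, SE 0.55, adjusted p = 0.122). With TPM values this lean change was called (-1.44, adjusted p = 0.0244). The change in lean minus that in obese tumors was -2.90 (95% confidence interval -4.56 to -1.25, adjusted p = 0.0187). Without obese tumor 1 after ETS the rise in obese tumors was 1.23 with an adjusted p of 0.0785, and without obese tumor 4 before therapy it was 1.62 with an adjusted p of 0.0532, whereas the difference between lean and obese tumors stayed called in all 16 fits that each left out a tumor (adjusted p from 0.00827 to 0.0417). The 250 bases before the start of Cd36 in RefSeq's table are shown because Cd36 is the receptor whose ETS effect differed between the hosts. Capitals mark the letters searched for in all promoters, on both strands: AGGTCA, a core that nuclear receptors such as the PPARs bind, ACGTG, the core that hypoxia-inducible factors bind, GGGCGG, the core of a GC box, and TATAAA.

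Cd36, chr5:17835897-17836146, minus strand of GRCm38.p6: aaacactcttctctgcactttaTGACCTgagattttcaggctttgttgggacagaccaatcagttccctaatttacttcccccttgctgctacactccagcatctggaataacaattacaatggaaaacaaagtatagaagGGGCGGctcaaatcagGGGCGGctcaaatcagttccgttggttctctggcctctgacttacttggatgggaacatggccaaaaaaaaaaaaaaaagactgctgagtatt

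The window held 1 AGGTCA core and 2 GC box cores, and the latter lie in a 16-base direct repeat. AGGTCA cores were found in 14% of the 32851 windows of 250 bases taken from RefSeq's promoters, and GC box cores in 32.7%. The paired form of this core that PPAR and RXR bind, AGGTCANAGGTCA, was found in 11 windows (0.0335%) and in none of the 10 windows of the 7 genes that had an entry. These are matches of letters only. The window of Cd36 lies within the span of the gene.

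Lpl, the lipase that frees fatty acids from lipoproteins (gene ID 16956, chromosome 8 from 68880555 to 68906932), fell after ETS in lean tumors by 2.74 on the log2 scale (SE 0.67, adjusted p = 0.00451), which is 6.70-fold. The lean tumors had 42.4, 38.0, 21.8 and 31.9 CPM before therapy and 7.16, 6.85, 4.78 and 1.24 CPM after ETS, without overlap. In obese tumors the level was 3.29, 34.4, 9.49 and 3.02 CPM before therapy and 30.1, 21.3, 19.6 and 17.9 CPM after ETS. Obese tumor 2 before therapy was thus as high as lean tumors before therapy, and the groups overlapped (log2FC 0.83, SE 0.63, adjusted p = 0.314). The change in lean minus that in obese tumors was -3.57 (95% confidence interval -5.52 to -1.62, adjusted p = 0.0148) and stayed called in each of the 16 fits without a tumor, whereas without the 4 tumors over 100 CPM of muscle markers it was -4.27 with an adjusted p of 0.0530. Without obese tumor 2 before therapy, Lpl rose in obese tumors by 2.07 (adjusted p = 0.00666). That tumor had the highest adipocyte, macrophage, fibroblast, endothelial, melanocyte and T and NK cell marker sums of its group.

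Vldlr, the receptor for triglyceride-rich lipoproteins (gene ID 22359, chromosome 19 from 27216480 to 27254231), had higher levels with obese hosts before therapy, and its changes after ETS did not pass the test. Lean tumors had 5.38, 2.51, 2.94 and 3.13 CPM before therapy and 5.04, 2.56, 4.40 and 3.80 CPM after ETS (log2FC 0.18, SE 0.36, adjusted p = 0.703, and -0.073 with TPM values). Obese tumors had 12.8, 13.1, 8.07 and 11.7 CPM before therapy and 7.58, 5.0, 7.65 and 18.2 CPM after ETS (log2FC -0.25, SE 0.35, adjusted p = 0.602). Before therapy, all obese tumors were above all lean tumors (log2FC 1.71, SE 0.36, adjusted p = 0.00278). After ETS the ranges overlapped slightly (log2FC 1.28, adjusted p = 0.0486), and this call was lost in 14 of the 16 fits without a tumor, down to 0.77 without obese tumor 4 after ETS. Vldlr shares part of its locus with Gm35438, so that reads there could belong to either gene.

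Slc27a4, the transport protein FATP4 (gene ID 26569, chromosome 2 from 29802634 to 29817522), rose after ETS in both hosts. It went from 64.5, 44.3, 46.7 and 57.7 CPM to 106, 117, 89.6 and 82.3 CPM in lean tumors (log2FC 0.89, SE 0.18, adjusted p = 0.00139). In obese tumors it went from 71.6, 61.9, 41.7 and 46.8 CPM to 124, 107, 85.5 and 87.9 CPM (log2FC 0.87, SE 0.18, adjusted p = 0.00191). In neither host did the tumors before and after ETS overlap. The difference between the changes was 0.020, with a 95% confidence interval from -0.52 to 0.56 (adjusted p = 0.967), and with TPM values it was -0.27. Slc27a1, the transport protein FATP1 (gene ID 26457, chromosome 8 from 71568728 to 71587307), rose in obese tumors from 33.3, 32.8, 25.8 and 30.9 CPM to 55.0, 47.3, 58.9 and 83.2 CPM (log2FC 0.99, SE 0.15, adjusted p = 0.000179), without overlap. In lean tumors it was at 27.2, 27.9, 23.4 and 30.2 CPM before therapy and 37.8, 33.7, 34.4 and 30.0 CPM after ETS, and the groups overlapped slightly (log2FC 0.32, SE 0.15, adjusted p = 0.0862, and -0.040 with TPM values). The lean minus obese difference of -0.67 (SE 0.21, adjusted p = 0.0386) lost its call in 8 of the 16 fits without a tumor, which left out lean tumors 2 and 4 before therapy, lean tumors 2, 3 and 4 after ETS, obese tumors 3 and 4 before therapy and obese tumor 3 after ETS, with adjusted p-values up to 0.0826. Without the 4 tumors over 100 CPM of muscle markers it was -0.84 (adjusted p = 0.0560), and the lean rise of Slc27a4 was 0.62 (adjusted p = 0.0841).

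Slc27a3, the transport protein FATP3 (gene ID 26568, chromosome 3 from 90385230 to 90390835), fell in lean tumors by 1.13 on the log2 scale (SE 0.35, adjusted p = 0.0170). Its lean values were 5.40, 11.1, 14.7 and 11.2 CPM before therapy and 3.92, 3.48, 5.64 and 6.39 CPM after ETS, and lean tumor 1 before therapy lay among the treated tumors. The call was lost without lean tumor 3 before therapy (-0.93, adjusted p = 0.0598), lean tumor 1 after ETS (adjusted p = 0.0511) or lean tumor 2 after ETS (adjusted p = 0.0560). In obese tumors it was at 5.15, 5.34, 6.80 and 5.05 CPM before therapy and at 3.88, 3.95, 8.30 and 11.1 CPM after ETS (log2FC 0.29, SE 0.35, adjusted p = 0.540). The lean and obese changes differed by -1.42 (adjusted p = 0.0628). The 250 bases before the starts of the transport protein genes that rose are shown with the same letters in capitals, the start of Slc27a1 being the third of 3 that RefSeq lists.

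Slc27a4, chr2:29802384-29802633, plus strand: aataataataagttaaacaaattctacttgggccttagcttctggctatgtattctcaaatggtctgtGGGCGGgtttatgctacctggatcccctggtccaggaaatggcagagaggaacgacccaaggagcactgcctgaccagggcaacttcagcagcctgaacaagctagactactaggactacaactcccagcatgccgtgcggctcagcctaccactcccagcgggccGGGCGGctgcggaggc
Slc27a1, chr8:71570344-71570593, plus strand: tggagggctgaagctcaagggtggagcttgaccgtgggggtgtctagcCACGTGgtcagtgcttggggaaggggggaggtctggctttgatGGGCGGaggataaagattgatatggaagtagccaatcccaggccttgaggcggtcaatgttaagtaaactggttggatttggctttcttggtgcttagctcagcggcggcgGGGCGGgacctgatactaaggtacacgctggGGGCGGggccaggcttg

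Slc27a4 held 2 GC box cores, while Slc27a1 held 3 of them and 2 ACGTG cores that overlap on opposite strands of the same letters. The ACGTG core was found in 16.6% of all windows. The other windows of Slc27a1 held no ACGTG core, and the window of Slc27a3 held 2 GC box cores.

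Fabp3, the binding protein of heart and muscle (gene ID 14077, chromosome 4 from 130308738 to 130315463), rose after ETS in both hosts. Lean tumors went from 1.26, 2.47, 1.24 and 1.89 CPM to 7.97, 6.61, 7.16 and 6.51 CPM, with no overlap (log2FC 2.04, SE 0.33, adjusted p = 0.000253), that is 4.11-fold. In obese tumors Fabp3 was at 3.66, 6.16, 13 and 10.2 CPM before therapy and at 13.9, 16.9, 18.3 and 11.9 CPM after ETS, where obese tumor 3 before therapy lay within the treated range (log2FC 0.89, SE 0.31, adjusted p = 0.0351). The obese rise lost its call without obese tumor 1 or 2 before therapy or obese tumor 1, 2 or 3 after ETS, with a lowest value of 0.64 and adjusted p-values up to 0.0898. The changes differed by 1.15 (adjusted p = 0.0929). Before therapy Fabp3 was 4.8-fold higher in obese than in lean tumors, again without overlap (log2FC 2.26, SE 0.33, adjusted p = 0.000176). Summed skeletal muscle markers were 5.25 and 5.11 CPM in lean tumors 3 and 4 after ETS, where Fabp3 had 7.16 and 6.51 CPM, and 399 and 245.5 CPM in lean tumors 1 and 2 after ETS, where it had 7.97 and 6.61 CPM. Without the 4 tumors over 100 CPM of these markers, the lean rise was 2.23 and the obese rise 0.85, the latter with an adjusted p of 0.0857. Fabp3 overlaps Zcchc17, and its pseudogene Fabp3-ps1, which reached means from 0.0318 to 0.619 CPM, could share reads with it. None of the searched letters stood in the window before Fabp3.

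Fabp4, the binding protein of adipocytes and macrophages (gene ID 11770, chromosome 3 from 10204342 to 10208616), was the gene with the largest difference between obese and lean tumors after ETS among the 10. Lean tumors had 18.7, 24.1, 10.2 and 11.5 CPM before therapy and 15.9, 16, 7.66 and 7.70 CPM after ETS (log2FC -0.45, SE 0.49, adjusted p = 0.479). Obese tumors had 13.3, 67.9, 53.1 and 27.0 CPM before therapy and 224, 70.0, 107 and 65.8 CPM after ETS, where only obese tumor 2 before therapy reached into the treated range. The obese log2 fold change was 1.53 (SE 0.49, adjusted p = 0.0227). It was 1.03 without obese tumor 1 after ETS (adjusted p = 0.10), 1.24 without obese tumor 1 before therapy (adjusted p = 0.0519) and 1.38 without obese tumor 4 before therapy (adjusted p = 0.0670). The lean minus obese difference of -1.98 had an adjusted p of 0.0647. Already before therapy Fabp4 was 2.50-fold higher in obese than in lean tumors, with overlap and without a call (log2FC 1.32, SE 0.49, adjusted p = 0.0600). After ETS, Fabp4 was 9.89-fold higher in obese than in lean tumors (log2FC 3.31, SE 0.53, adjusted p = 0.00769), and no obese tumor was as low as a lean tumor.

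Fabp5, the epidermal binding protein (gene ID 16592, chromosome 3 from 10012585 to 10016610), fell after ETS in obese tumors while it did not pass the test in lean tumors. Obese tumors went from 272, 308, 325 and 282 CPM to 197, 177, 230 and 180 CPM, all below the untreated ones, a fall by 0.60 on the log2 scale (SE 0.12, adjusted p = 0.00130). Lean tumors had 202, 276, 193 and 231 CPM before therapy and 259, 279, 242 and 231 CPM after ETS (log2FC 0.16, SE 0.12, adjusted p = 0.274, and -0.20 with TPM values). The difference of 0.76 (95% confidence interval 0.41 to 1.12) had an adjusted p of 0.00561 and stayed called in each of the 16 fits without a tumor, with values from 0.69 to 0.88. With limma on log2(TPM + 1) it was 0.49 with an adjusted p of 0.119. Fabp7, the brain-type binding protein (gene ID 12140, chromosome 10 from 57784923 to 57788450), rose in lean tumors from 7.70, 7.84, 8.38 and 6.97 CPM to 17.3, 13.6, 13.7 and 12.3 CPM, with no overlap (log2FC 0.88, SE 0.24, adjusted p = 0.00772). In obese tumors it had 9.41, 10.2, 10.4 and 6.25 CPM before therapy and 11.9, 14.2, 11.6 and 5.45 CPM after ETS, where tumor 4 of each group was the lowest (log2FC 0.25, SE 0.23, adjusted p = 0.414). Without obese tumor 4 after ETS, the obese change of Fabp7 was 0.48 and was called (adjusted p = 0.0354). The lean and obese changes of Fabp7 differed by 0.63 (adjusted p = 0.219). The lean rise of Fabp7 was 0.48 with TPM values (adjusted p = 0.0873) and 0.77 without the tumors over 100 CPM of muscle markers (adjusted p = 0.102).

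**Figure D3:**
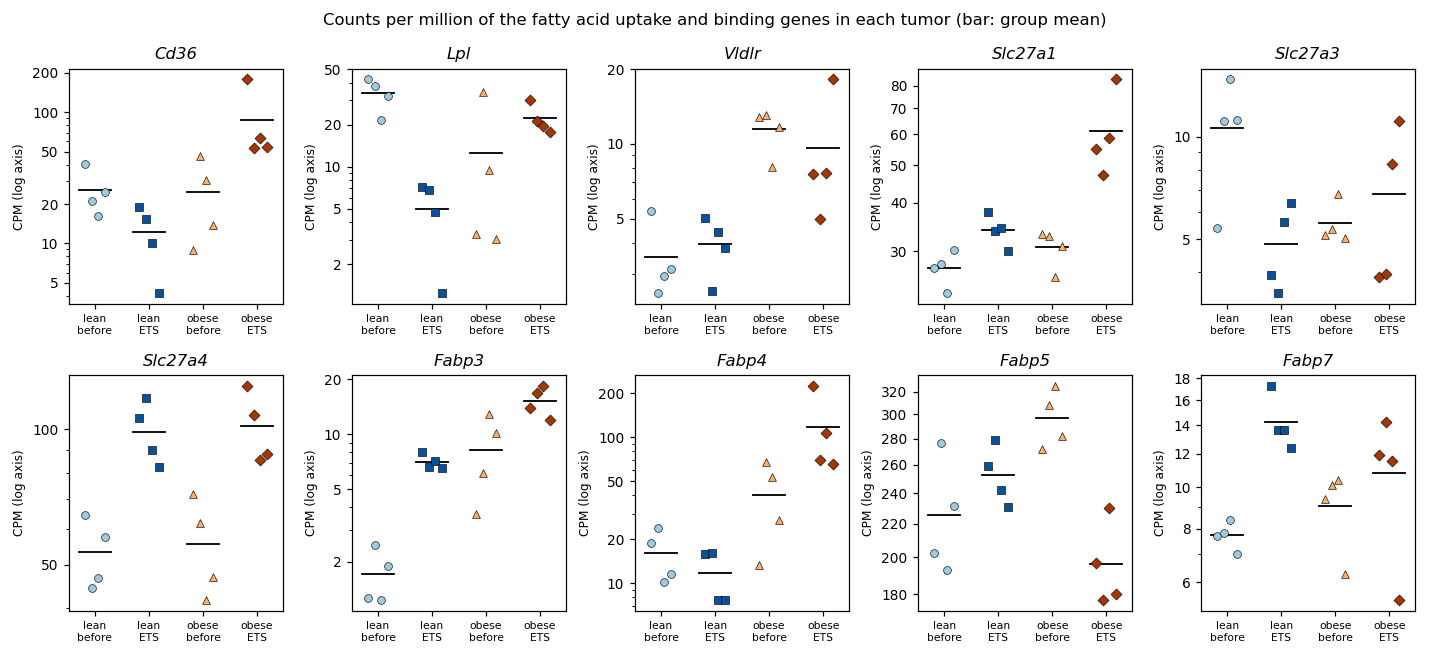
CPM of each of the 10 genes in each tumor, on log axes, with the groups lean before therapy, lean after ETS, obese before therapy and obese after ETS from left to right; points are tumors 1 to 4 from left to right and bars are group means. Cd36 and Fabp4 stand highest in obese tumors after ETS (53.8 to 179 and 65.8 to 224 CPM), Lpl lowest in lean tumors after ETS (1.24 to 7.16 CPM), and Slc27a4 rises in both hosts.

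Obese and lean tumors were also compared directly. These comparisons share tumors with those above. Before therapy 3 of the 10 genes were higher in obese tumors (Fabp3, Vldlr and Fabp5) and 0 were lower, beside 13.5% of tested genes higher and 12.9% lower in edgeR's test. At an unadjusted p under 0.05, Fabp4 (1.32) was higher, and Lpl (-1.42) and Slc27a3 (-0.93) were lower. DESeq2 and the exact test each called Fabp4 higher (adjusted p = 0.0432 and 0.0299) and 1 gene lower, Slc27a3. Lpl was called lower without obese tumor 2 before therapy (-2.67, adjusted p = 0.00219), with TPM values (-1.87, adjusted p = 0.0129) and with the replicate number as a block (-1.84, adjusted p = 0.0321), and the block also called Slc27a3 lower (adjusted p = 0.0256). Of 11 melanocyte markers, 7 were lower in the same comparison. Fabp5 was 1.32-fold higher (log2FC 0.40, adjusted p = 0.0217) and lost that call without lean tumor 1 (adjusted p = 0.0568) or 3 before therapy (0.0707) or obese tumor 3 before therapy (0.0664) and with TPM values (0.27, adjusted p = 0.187). For 2 genes the CPM ranges did not overlap before therapy, as for 30.4% of all tested genes. After ETS 4 of the 10 were higher in obese tumors, which were Fabp4, Cd36, Vldlr and Slc27a1, and 0 were lower, beside 3.28% of tested genes higher and 2.30% lower. Fabp5 was lower at an unadjusted p under 0.05 and was called lower by DESeq2 and the exact test. Cd36 was 7.22-fold higher (log2FC 2.85, SE 0.58, adjusted p = 0.0164, and 0.0525 without lean tumor 3 after ETS). Slc27a1 was 1.80-fold higher (log2FC 0.85, SE 0.15, adjusted p = 0.00944). In edgeR's fit with only the groups compared, Cd36 (adjusted p = 0.0546), Slc27a1 (0.0603) and Vldlr (0.130) lost these calls, and Fabp3 gained one (0.0407). Lpl (2.15, adjusted p = 0.0652) and Fabp3 (1.11, adjusted p = 0.0511) were above the lean tumors in each obese tumor but did not pass the test. Fabp5 was below them in each (-0.37, adjusted p = 0.0741). In all, 6 genes had ranges that did not overlap after ETS, beside 13.2% of all tested genes.

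Marker genes of other cell types moved with several of these results. The summed level of 12 macrophage markers was 431 to 1356 CPM in lean tumors before therapy, 56.2 to 436 CPM after ETS, 46.4 to 265 CPM in obese tumors before therapy and 367 to 1090 CPM after ETS. Among these genes, 9 were called lower after ETS with lean hosts and 8 higher with obese hosts, 11 had a lower change in lean than in obese tumors, and 10 were lower in obese tumors before therapy. The 8 fibroblast markers all rose in obese tumors, and 4 of them fell in lean tumors. Of 12 endothelial markers, 9 rose in obese tumors. In lean tumors 2 of them fell and 10 were not called, and their sum had a mean of 505 CPM before therapy and 535 CPM after ETS. Of all tested genes, 22.8% were lower after ETS in lean tumors and 21.2% higher in obese tumors. A lower change in lean than in obese tumors was called for 10.1%, and 12.9% were lower in obese tumors before therapy. Between obese and lean tumors after ETS, 0 of the 12 macrophage markers were called, while all 12 had a log2FC above 0 (median 1.40). In that comparison 4 of 8 fibroblast and 2 of 12 endothelial markers were called higher and 0 lower, beside 3.28% of tested genes higher. Before therapy, where the macrophage sums of obese tumors were all below those of lean tumors, the means of lean and obese tumors were 33.5 and 12.5 CPM for Lpl (unadjusted p = 0.0412, adjusted p = 0.115) and 25.7 and 24.8 CPM for Cd36 (adjusted p = 0.958). Across the 16 tumors, after each group mean was taken out, the correlation with the mean log2 level of the macrophage markers was 0.818 for Lpl, 0.759 for Cd36 and 0.615 for Fabp4. With the endothelial markers it was 0.583, 0.708 and 0.727 in the same order, and with the fibroblast markers 0.556, 0.509 and 0.529. With the melanocyte markers it was 0.815 for Fabp7 and 0.631 for Slc27a4, but -0.586 for Slc27a1 and -0.708 for Slc27a3. These are descriptions over tumors that share depth and tissue composition. The part of macrophages, fibroblasts, endothelium and adipocytes in the changes of Cd36, Lpl and Fabp4 was not tested.

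Adipocyte markers bear on Fabp4, Cd36 and Lpl as well. Their 10 genes summed to 40.9, 56.8, 48.9 and 0.631 CPM in obese tumors 1 to 4 after ETS and to 0.227, 50.3, 7.57 and 1.73 CPM in obese tumors 1 to 4 before therapy. Only Aqp7 of the 10 had counts in every tumor. In obese tumor 4 after ETS, Plin1, Cidec, Cfd, Retn and Adig were at 0 counts and Adipoq, Lep, Aqp7, Car3 and Pck1 at 6 to 8 counts, while Fabp4 had 65.8 CPM and Cd36 54.9 CPM, above all lean tumors after ETS. The same tumor had the highest macrophage (1090 CPM) and fibroblast (5902 CPM) sums of its group. In lean tumors after ETS the adipocyte sum was 26.3, 14.2, 0.501 and 0.613 CPM, and Fabp4 was higher in tumors 1 and 2 than in tumors 3 and 4. Markers of T and NK cells summed to 19.6 to 41.0 CPM in lean tumors before therapy and to at most 2.50 CPM in the 12 other tumors, beside the lower Lpl and Slc27a3 in lean tumors after ETS, and none of the 8 passed the limit on zero counts. Their part in these results was not tested. Schwann cell markers summed to 76.1 to 119 CPM in lean tumors before therapy and to at least 257 CPM in all other tumors. Not all of these 5 genes followed their sum, as 1 was called higher and 2 lower after ETS in lean tumors. Before therapy, 1 was called higher and 1 lower in obese than in lean tumors. Keratinocyte markers were at or below 15.1 CPM apart from 137 CPM in obese tumor 2 after ETS.

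**Figure D4:**
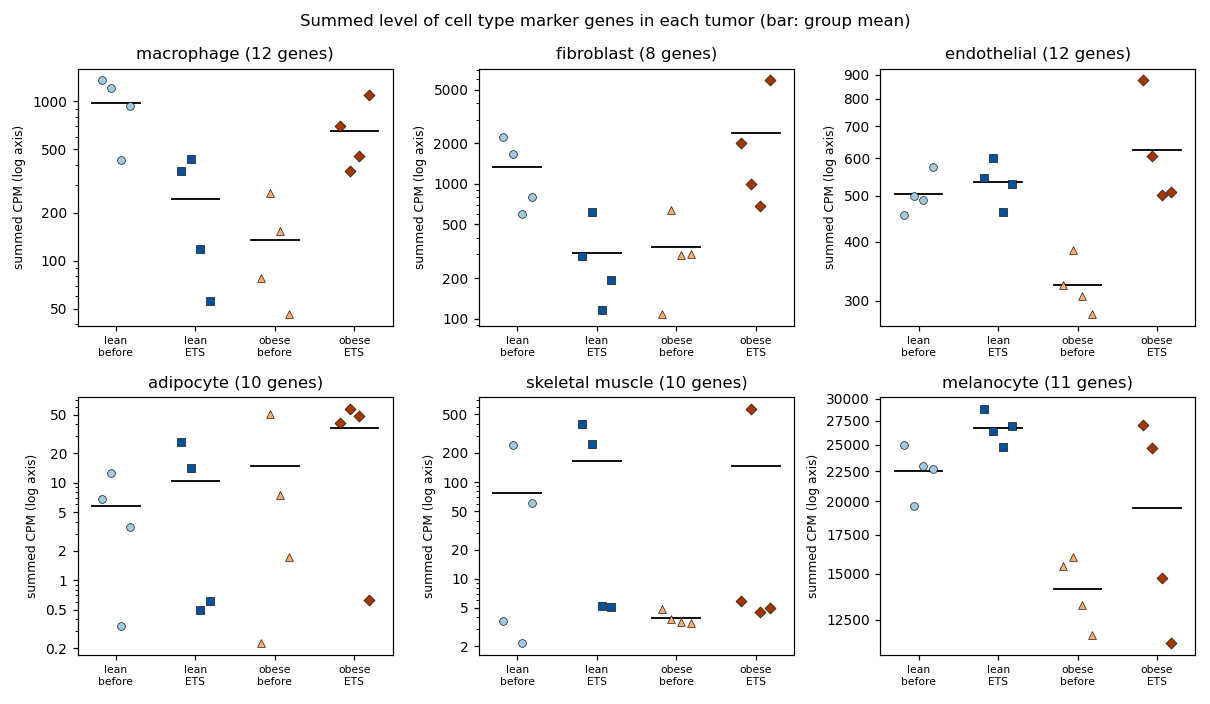
Summed CPM of the marker genes of 6 cell types in each tumor, on log axes, with group means as bars and tumors 1 to 4 from left to right in each group. Macrophage markers are lower after ETS in lean tumors (56.2 to 436 CPM) and higher after ETS in obese tumors (367 to 1090 CPM), and muscle markers exceed 100 CPM in 4 tumors.

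Other genes of the pathway were counted in lists. Of all tested genes, 21.0% were higher and 22.8% lower after ETS in lean tumors, and 21.2% higher and 19.0% lower in obese tumors. A count near these shares is no result about its list, here and in the lists that follow. Of 12 further members of the binding and transport protein families, 4 passed the limit on zero counts. Fabp1, Fabp2, Fabp9 and Slc27a5, known from liver, intestine or testis, had a count of 0 in all 16 tumors, and 3 counts correspond to 0.0459 to 0.0619 CPM there. Pmp2, the myelin member of the family, rose in obese tumors (log2FC 2.35, adjusted p = 0.000226), and the lean change was lower by 1.51 (adjusted p = 0.0448). Slc27a6, the transport protein of the heart, fell in obese tumors (-0.66, adjusted p = 0.0330), and Crabp2, a carrier of retinoic acid, rose in lean tumors (1.78, adjusted p = 0.00767). Among 8 tested genes of the lipase system, 3 rose with lean and 6 with obese hosts, with a median log2FC of 0.17 and 0.94. Gpihbp1, which holds the lipase on the capillary wall, was at 7.73 ± 2.12 CPM (SD, n = 4) with lean hosts before therapy and 9.55 ± 2.11 CPM after ETS, and it rose in obese tumors from 5.67 ± 1.75 to 14.4 ± 9.12 CPM (log2FC 1.34, adjusted p = 0.00826). Angptl4, an inhibitor of the lipase and a PPAR target, rose in obese tumors from 18.4 ± 11.2 to 62.6 ± 31.7 CPM (1.76, adjusted p = 0.0171), while lean tumors had 6.96 ± 2.94 and 6.44 ± 2.62 CPM. After ETS it stood higher with obese hosts by 3.28 on the log2 scale (adjusted p = 0.00944). Furin, a protease that cleaves the lipase, rose in obese tumors (0.97, adjusted p = 0.000527).

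Among 13 tested lipoprotein and scavenger receptors and their regulators, lean tumors had 3 that rose and 4 that fell, and obese tumors 7 that rose and 3 that fell. Lrp8, a lipoprotein receptor, fell in both hosts (-1.47 and -1.07, lean and obese). Msr1, a scavenger receptor of macrophages, fell by 2.35 with lean hosts but rose by 2.06 with obese hosts (difference -4.41, adjusted p = 0.00217). Of 7 genes for caveolae and for the palmitoylation of CD36, 4 rose in lean and 3 in obese tumors, among them Cav1 (0.69 and 1.23) and Zdhhc4 (0.60 and 0.61), which attaches palmitate to CD36. Of 6 tested acyl-CoA binding proteins, 2 rose with lean and 1 with obese hosts, and Scp2 rose in both (0.59 and 0.41).

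Lipid droplet and triglyceride genes were mostly higher after ETS, as 8 of 12 tested genes rose in lean tumors, with 1 lower, and 9 of 12 in obese tumors (median log2FC 0.58 and 0.67). Plin2, the coat protein of lipid droplets, went from 176 ± 37.4 to 246 ± 16.9 CPM in lean tumors (0.48, adjusted p = 0.0189) and from 155 ± 14.2 to 413 ± 87.2 CPM in obese tumors (1.42, adjusted p = 2.58e-05). The lean change was lower by 0.94 (adjusted p = 0.00764). Pnpla2, the first lipase of stored triglyceride, fell by 0.34 with lean hosts but rose by 0.76 with obese hosts, a difference of -1.09 (adjusted p = 0.000438). G0s2, which inhibits that lipase, rose in lean tumors (1.41, adjusted p = 0.0283), and before therapy it was higher in obese tumors by 2.58.

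Of 15 receptors and factors that regulate the 10 genes, lean tumors had 1 that rose and 5 that fell, while obese tumors had 5 that rose and 1 that fell. Pparg, the nuclear receptor known for driving Cd36, Lpl and Fabp4, fell in lean tumors from 4.07 ± 0.943 to 0.887 ± 0.459 CPM (log2FC -2.20, adjusted p = 0.000949). In obese tumors it rose from 1.17 ± 0.643 to 2.82 ± 1.27 CPM (1.27, adjusted p = 0.0242), and the changes differed by -3.47 (adjusted p = 0.00110). Nr1h3, the liver X receptor alpha, and Cebpa, a factor of adipocytes and myeloid cells, moved the same way (-2.70 and 1.95, and -2.05 and 1.99, lean and obese). Ppara, the receptor of fatty acid oxidation genes, was low at 0.512 to 0.984 CPM in the group means and did not pass the test (0.73 with lean hosts, adjusted p = 0.0904, and 0.28 with obese hosts, adjusted p = 0.522). Ppard rose in lean tumors (0.50, adjusted p = 0.000909).

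**Figure D5:**
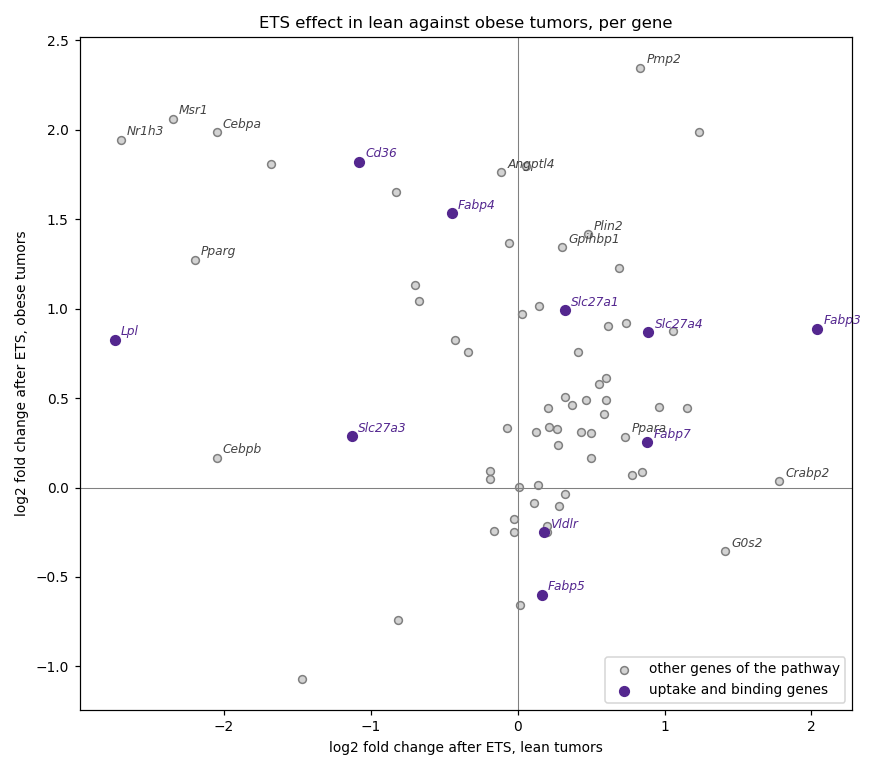
Log2 fold change after ETS in obese tumors (vertical axis) against that in lean tumors (horizontal axis) for the 10 uptake and binding genes (violet) and other tested genes of the pathway lists (grey). Cd36, Fabp4, Lpl and Slc27a3 lie in the upper left, as do Pparg, Cebpa, Nr1h3 and Msr1. In edgeR's test Lpl and Slc27a3 were called in lean tumors only, and Cd36 and Fabp4 in obese tumors only. Fabp3, Slc27a4, Fabp7 and Slc27a1 lie in the upper right (with TPM values the lean change of Slc27a1 was -0.040).

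Genes most alike to each of the 10 were named by the correlation of log2 CPM over the 16 tumors after each group mean was taken out, among 13305 genes with a mean of at least 1 CPM. For Lpl they were Cebpa (r = 0.930), Ptcd1 and Fam20c, and for Cd36 they were Abcd2 (0.884), Abcc3 and Trem2. Those for Fabp4 were Fads3 (0.891), Ctla2b and Car4. For Slc27a1 they were Pld2 (0.902), Tmem63a and Txnip, and for Slc27a4 they were Ap5b1 (0.977), Vps52 and Trpv2. Fabp3 was most like Pithd1 (0.878), Ythdf1 and Rmdn3, Fabp5 like Snx15 (0.831), Mlip and Cyth1, and Vldlr like Dse (0.893), Rbpj-ps3 and Stt3b. Slc27a3 was most like Gigyf1 (0.979), Gm21092 and LOC102636815, and Fabp7 like Gm16861 (0.971), Gtf3c6 and Hps3. Among the 10 genes themselves, Cd36 went with Lpl (0.875) and Fabp4 (0.863), Fabp4 with Lpl (0.746) and Vldlr with Slc27a1 (0.761), and Slc27a3 went against Slc27a4 (-0.728). With 16 tumors, the highest of so many correlations are large by selection, and tumors share depth and tissue composition.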

How the data were processed

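Poly(A) RNA of 16 tumors had been sequenced as stranded paired reads. Per the labels, the authors aligned the reads to mm10 with HISAT2 2.1.0 after trimming with Trimmomatic and counted genes with StringTie 2.1.3b. The authors deposited whole-number read counts per gene, which are not normalized, and the TPM and FPKM values of the same step. The 16 FPKM columns were not used, and the deposited TPM served for levels between genes and as an alternative. Whether counting used the strand is not given in the sources used here, so reads of overlapping genes may be shared.

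Genes without counts in at least 1 tumor (29568 of 45777) were left out, as in the study's methods. Counts were scaled by TMM, and 16209 genes entered edgeR's quasi-likelihood test (edgeR 4.0.16, R 4.3.3), with all 16 tumors in a fit with a mean per group and Benjamini-Hochberg adjustment over all tested genes. The common biological coefficient of variation was 0.233. Standard errors were derived from each fold change with its F value, with 95% confidence intervals. The labels do not say that tumors came from separate animals, so p-values measure the spread between these samples. Tumors of each group differed by more than counting noise (correlations 0.970 to 0.992). The steps were also run on simulated counts, with changes set only in lean tumors after ETS and no change of tissue composition. That run cannot show how the steps behave when cell types shift, and its outcome is not given here.

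The 10 genes, the lists and the markers were chosen with earlier results of these data known. Named are the 10 genes, the 3 largest called changes of each pathway list in each comparison, Gpihbp1, Angptl4, Ppara, Pparg and Plin2, and the 3 genes most alike to each of the 10. Some genes that this rule covers are not reported here. Promoter windows and gene coordinates come from RefSeq's tables of GRCm38.p6, in which 7 of the 10 genes had a promoter. Those of Fabp4, Fabp5 and Lpl were not analysed here. Alternatives were DESeq2's size factors, DESeq2 1.42.0, edgeR's exact test, filterByExpr, no exclusion of genes, limma 3.58.1 on log2(TPM + 1) and log2(TPM + 0.1), fits with only the groups compared, the replicate number as a block, each tumor left out and, chosen after seeing the data, the tumors with muscle markers over 100 CPM left out.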

Additional observations from a re-analysis of the deposited data

Results flagged for a closer look

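Of 40 groups of 4 tumors (10 genes in 4 groups), 2 held a tumor far from the others by Dixon's criterion, which chance meets in about 1 of 20 groups. In obese tumors after ETS, tumor 1 had 178.9 CPM of Cd36, while the others had 53.8 to 63.5 CPM. In obese tumors before therapy, tumor 3 had 6.80 CPM of Slc27a3, while the others had 5.05 to 5.34 CPM.

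The effect of ETS was not the same in both hosts for 4 of the 10 genes in edgeR's test of the difference, with lean minus obese values of -2.90 for Cd36 (adjusted p = 0.0187), -3.57 for Lpl (adjusted p = 0.0148), -0.67 for Slc27a1 (adjusted p = 0.0386) and 0.76 for Fabp5 (adjusted p = 0.00561), beside 10.1% of all tested genes lower and 6.35% higher. Slc27a1 lost its call in 8 of the 16 fits without a tumor, Lpl (adjusted p = 0.0530) and Slc27a1 (0.0560) without the tumors over 100 CPM of muscle markers, and Fabp5 with TPM values (0.119).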

How the results depend on the processing

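The numbers of the 10 genes called were 5 in lean tumors, 6 in obese tumors, 4 for the difference between the effects, 3 for obese against lean tumors before therapy and 4 after ETS. DESeq2 called 7 for the difference, 5 before therapy and 7 after ETS, the exact test 5 before therapy and 7 after ETS, and fits with only the groups compared 2 after ETS. With only the groups compared, edgeR also lost the obese rises of Fabp4 (adjusted p = 0.0528) and Fabp3 (0.0763) and gained the lean rise of Slc27a1 (0.0334). Of all 16209 tested genes, 2660 were called for the difference, 4280 before therapy and 904 after ETS, against 3337, 4754 and 2078 by DESeq2, 4333 before therapy and 1571 after ETS by the exact test, and 66 after ETS with only the groups compared. Without the tumors over 100 CPM of muscle markers, chosen after seeing the data, 2 were called in lean tumors and 2 for the difference (of all genes 2988 in place of 7099, and 1501 in place of 2660). In lean tumors Slc27a4 (0.62, adjusted p = 0.0841), Fabp7 (0.77, 0.102) and Slc27a3 (-0.79, 0.233) then lost their calls. The cause of these changes was not tested, and fits that left out tumors also rested on fewer tumors. With each tumor left out, the numbers ranged from 4 to 6, 3 to 7, 3 to 5, 2 to 5 and 2 to 4 in the order given.

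With TPM values, the median change of all genes moved by -0.35 in lean and -0.094 in obese tumors with 1 added, and by -0.37 and -0.098 with 0.1 added, and small changes turned their sign. With 1 and 0.1 added, the lean change was -0.20 and -0.20 for Fabp5, -0.073 and -0.16 for Vldlr and -0.040 and -0.042 for Slc27a1, and for Slc27a4 the difference between the effects was -0.27 and -0.27 and the difference before therapy -0.087 and -0.091. For Slc27a4 without the muscle tumors, these were -0.23 and -0.042. None of these had been called. Fabp7 lost its lean call with TPM values (0.48, adjusted p = 0.0873). Without a tumor, values that changed sign ranged from -0.54 to 0.26 for Cd36 before therapy, from -0.039 to 0.50 for Slc27a3 in obese tumors, and for Slc27a4 from -0.13 to 0.14 for the difference between the effects, from -0.088 to 0.17 before therapy and from -0.059 to 0.12 after ETS.

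Whether tumors of the same replicate number belong together was not settled (correlations of deviations from -0.151 to 0.570, 12 of 24 above 0.1, own number best in 17 of 48). With the replicate number as a block, more of all tested genes were called, with 4801 in place of 4280 before therapy and 1683 in place of 904 after ETS. With the replicate number as a block, 5, 6, 5, 6 and 6 genes were called in the same order, so that the number before therapy was 6 in place of 3, with Fabp4 gained as higher and Lpl and Slc27a3 as lower. Without the limit on zero counts, Fabp3 in obese tumors (adjusted p = 0.0597), the Slc27a1 difference (0.0613) and Vldlr after ETS (0.0807) lost their calls.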
